A study of Mus musculus with 38 samples.

Results

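The insulin signalling components described here are 10 genes, *Insr*, *Irs1*, *Irs2*, *Pik3r1*, *Pik3ca*, *Akt1*, *Akt2*, *Foxo1*, *Foxo3* and *Tbc1d4*, taken by name from the 29564 genes listed in RNA sequencing of the mouse left ventricle in a model of HFpEF, the heart failure in which ejection fraction is preserved. The list was drawn up with earlier results of these data known. All mice were wild-type C57BL6, labelled female, whereas the study's methods describe males, and the Y-linked transcript *Ddx3y* was at 13.4 to 23.4 TPM (transcripts per 1000000) in the 38 libraries. Of the 4 groups, 3 received a high-fat diet together with L-NAME, a nitric oxide synthase inhibitor, and then vehicle (HFpEF+Veh, n = 8), the histone deacetylase 6 inhibitor TYA-018 (HFpEF+TYA-018, n = 11) or empagliflozin, an SGLT2 inhibitor (HFpEF+SGLT2i, n = 11). The remaining mice had non-failing hearts and also received vehicle (non_failing, n = 8). Because diet and L-NAME always came together, their parts in any difference from the non_failing group cannot be told apart. Age and fasting state at collection were not given in the labels.

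Insulin acts by binding a receptor tyrosine kinase, encoded by *Insr*, which phosphorylates the adaptors IRS1 and IRS2. The adaptors bind the regulatory subunit of phosphoinositide 3-kinase and so bring its catalytic subunit to the membrane, where the lipid product recruits the AKT kinases. In heart muscle AKT phosphorylates TBC1D4, which releases vesicles carrying the glucose transporter GLUT4, and phosphorylates FOXO transcription factors, which then leave the nucleus. Much of this control is by phosphorylation, which transcript levels do not measure.

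In units of 1000000 estimated counts, the libraries held 21.5 to 59.3 (median 29.5), and mitochondrial transcripts made up 28.5 to 39.5% of the listed counts. Cardiomyocyte markers summed to 29651 ± 3230 TPM in non_failing, 25082 ± 1360 in HFpEF+Veh, 25620 ± 1998 in HFpEF+TYA-018 and 24260 ± 2872 in HFpEF+SGLT2i (SD). Of these markers, *Myh6* and *Actc1* had a higher mean in HFpEF+Veh than in non_failing, and the others a lower one. White fat cell markers summed to at most 0.791 TPM. Of the brown fat pair, *Ucp1* was at most 0.116 TPM. *Cidea* was at 15.0 ± 1.87 TPM in non_failing, 26.0 ± 3.35 in HFpEF+Veh, 28.0 ± 3.00 in HFpEF+TYA-018 and 28.0 ± 2.66 in HFpEF+SGLT2i (SD), with 35.5 TPM in its highest library. Fibroblast markers summed to 249 ± 36.6, 350 ± 115, 263 ± 41.7 and 266 ± 30.6 TPM in the same order of groups, and macrophage markers to 60.8 ± 10.1, 79.5 ± 17.6, 67.3 ± 18.7 and 67.3 ± 12.9 TPM. The part of these sums, or of *Cidea*, in the differences from non_failing was not tested. The HFpEF+Veh library V2523 held 960 TPM of hepatocyte transcripts, against a HFpEF+Veh median of 3.76 TPM, 16.3 to 258 TPM in non_failing and at most 6.32 TPM in the drug groups. The HFpEF+Veh library V2532 held the skeletal muscle transcripts *Tnnt3* and *Mylpf* at 16.9 and 11.2 TPM, against at most 0.716 and 0.930 TPM in the other HFpEF+Veh libraries. *Myh4* was at 7.84 TPM there and listed at 0 in those others, and *Myh1* was at 0.0937 TPM, against at most 0.0116 TPM. *Acta1* (213 TPM) and *Ckm* (765 TPM) in V2532 did not exceed the highest of those others (222 and 1105 TPM). The 6 skeletal muscle markers together summed to 1014 TPM in V2532, the lowest of the 8 HFpEF+Veh libraries. The part of these transcripts in the members' values was not tested. Among the 8 HFpEF+Veh libraries, V2532 was the highest for *Insr*, *Irs1*, *Irs2*, *Pik3r1*, *Akt1*, *Foxo1* and *Foxo3*, and V2523 was the highest for *Pik3ca* and *Akt2*. The HFpEF+Veh mean of each member is therefore also given without both libraries. In whole tissue, fewer cells of a type and less RNA per cell cannot be told apart.

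None of the 10 transcripts differed between groups at an adjusted p under 0.05 in any of 6 comparisons by edgeR's quasi-likelihood test. The background share of all 13765 tested genes that did was 3.15% for HFpEF+Veh against non_failing, 1.93% for HFpEF+TYA-018 against HFpEF+Veh, 0.850% for HFpEF+SGLT2i against HFpEF+Veh, 7.39% for HFpEF+TYA-018 against non_failing and 6.45% for HFpEF+SGLT2i against non_failing. Between the drugs the background itself was 0%, with 913 genes higher and 908 lower at an unadjusted p under 0.05, and 185 genes called by DESeq2. In the test for any difference among the 4 groups, 9.50% of all genes and none of the 10 were called. For that test *Tbc1d4* was called by DESeq2, which called 13.2% of all genes, and with an offset for effective length, which called 7.88%. By edgeR's test 3 of the 10, *Tbc1d4*, *Irs1* and *Akt1*, had an unadjusted p under 0.05, as did 25.4% of all genes. Without adjustment, 3 members were under 0.05 in HFpEF+Veh against non_failing (all genes: 1165 higher and 1020 lower), 1 in HFpEF+TYA-018 against HFpEF+Veh (1202 and 1202), 1 in HFpEF+SGLT2i against HFpEF+Veh (570 and 813), 0 between the drugs, 3 in HFpEF+TYA-018 against non_failing (1527 and 1497) and 5 in HFpEF+SGLT2i against non_failing (1457 and 1246). DESeq2 called *Tbc1d4* in HFpEF+SGLT2i against HFpEF+Veh, where it called 0.835% of all genes, and *Irs1* in HFpEF+TYA-018 against non_failing, where it called 9.24%. The ranges of TPM overlapped for every member in every comparison. Of the same 13765 genes, 0.581% had TPM ranges that did not overlap between HFpEF+Veh and non_failing, 0.102% and 0.0145% between HFpEF+Veh and TYA-018 or SGLT2i, 0.00726% between the drugs, and 0.872% and 0.719% between non_failing and TYA-018 or SGLT2i. The members nearest to a call were *Tbc1d4*, higher in both drug groups than in HFpEF+Veh, *Irs1* and *Akt1*, lower in all 3 HFpEF groups than in non_failing, and *Insr*, lower in HFpEF+TYA-018 than in non_failing. Comparisons that share HFpEF+Veh or non_failing share those libraries and are not independent of each other.

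**Figure D1:**
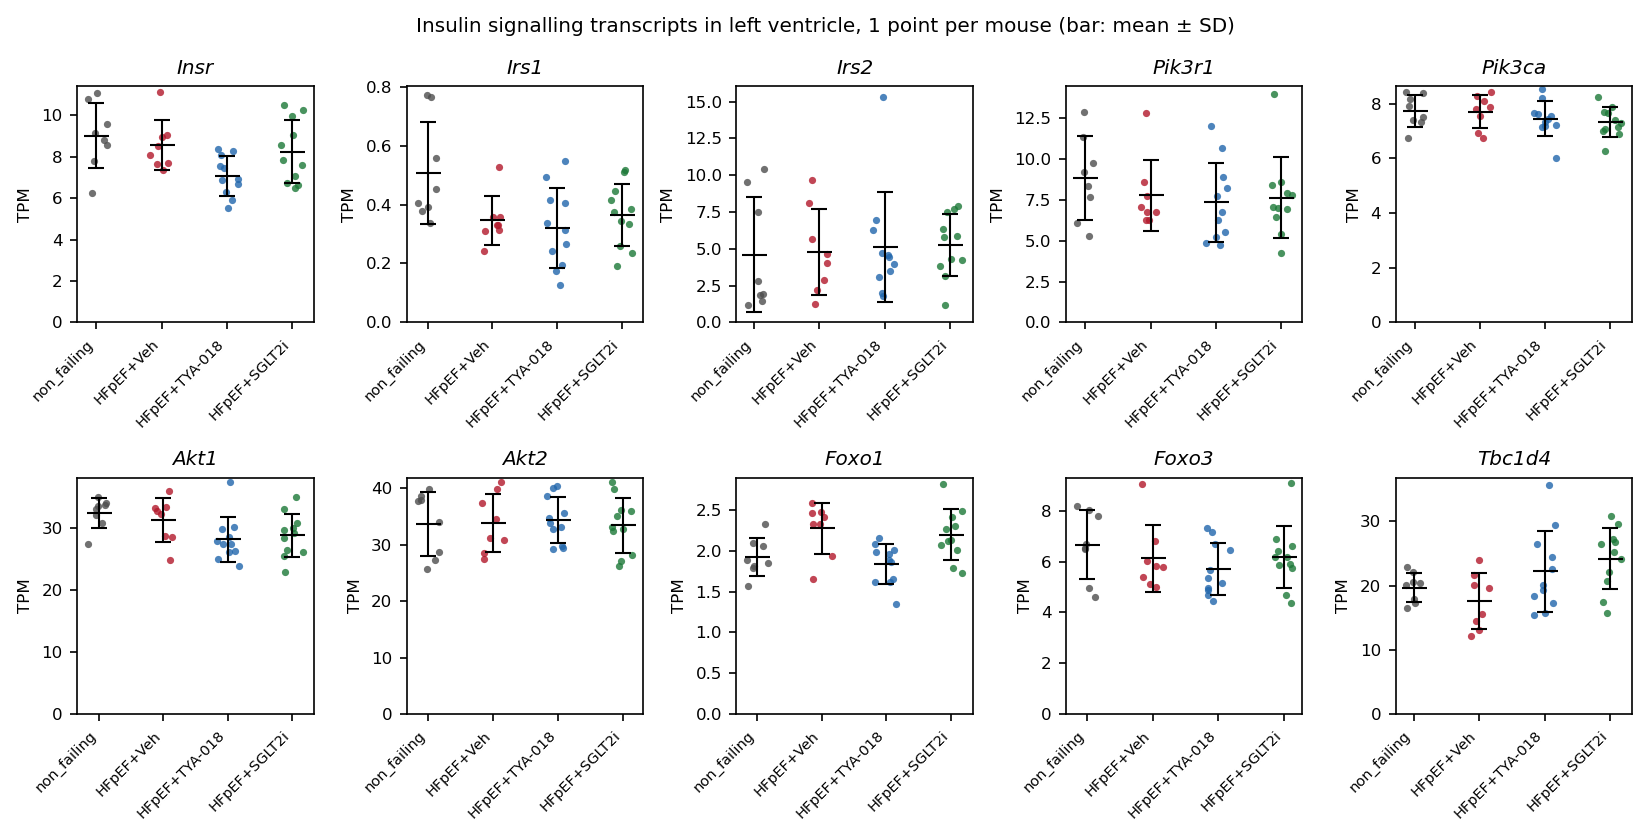
TPM (y axis, from 0, a separate scale for each gene) of the 10 insulin signalling transcripts in each library, by group on the x axis, with 1 point per mouse and bars for mean ± SD. The points of the 4 groups overlap in every panel, Irs2 spreads from 1.201 to 15.3 TPM, and Pik3ca stays between 6.02 and 8.52 TPM.

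*Insr*, the insulin receptor gene, lies on the minus strand of chromosome 8 (3122061 to 3279617, GRCm38). Its level was 6.23, 8.99 and 11.1 TPM (lowest, median and highest) in non_failing and 7.37, 8.31 and 11.1 TPM in HFpEF+Veh. In HFpEF+TYA-018 it was 5.52, 6.95 and 8.38 TPM, and in HFpEF+SGLT2i 6.49, 7.83 and 10.5 TPM. The HFpEF+TYA-018 libraries were the lowest as a group, and 6 of 8 non_failing libraries lay above the highest of them. Without V2523 and V2532, the HFpEF+Veh mean was 8.22 ± 0.731 TPM (SD, n = 6), against 8.56 ± 1.21 TPM (n = 8) with them. Against non_failing, the log2 fold change in HFpEF+TYA-018 was -0.25 ± 0.088 (SE), with a 95% interval of -0.43 to -0.068, and 11 of 11 libraries lay below the non_failing mean. The edgeR adjusted p was 0.0807. It was called by 3 alternatives, scaling by library size alone (adjusted p = 0.0297), limma on log2(TPM + 1) (adjusted p = 0.0349) and limma on log2(TPM + 0.1) (adjusted p = 0.0398). Those called 6.57%, 4.40% and 4.48% of all genes they tested. Against HFpEF+Veh the difference was -0.13, with an interval of -0.31 to 0.050, and for HFpEF+SGLT2i against HFpEF+Veh it was -0.012, with an interval of -0.19 to 0.17.

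*Irs1* and *Irs2* encode the adaptors that carry the signal from receptor to lipid kinase. *Irs1*, on the minus strand of chromosome 1 (82233101 to 82291416), was the least abundant member, with 45.3 to 270 estimated counts in a library. Its level was 0.338, 0.429 and 0.770 TPM in non_failing, 0.242, 0.330 and 0.528 TPM in HFpEF+Veh, 0.127, 0.314 and 0.548 TPM in HFpEF+TYA-018 and 0.190, 0.375 and 0.516 TPM in HFpEF+SGLT2i. The 3 highest non_failing libraries lay above every HFpEF+Veh library, and 5 of 8 HFpEF+Veh libraries lay below every non_failing library. For HFpEF+Veh against non_failing it had a log2 fold change of -0.61 ± 0.22 (SE), with a 95% interval of -1.05 to -0.16 and an edgeR adjusted p of 0.140. It was -0.60 in HFpEF+TYA-018 (adjusted p = 0.0641) and -0.49 in HFpEF+SGLT2i (adjusted p = 0.159) against the same non_failing libraries. DESeq2 called the HFpEF+TYA-018 difference from non_failing (adjusted p = 0.0413). Neither drug group differed detectably from HFpEF+Veh, with intervals of -0.41 to 0.42 for HFpEF+TYA-018 and -0.30 to 0.53 for HFpEF+SGLT2i. Without V2523 and V2532, *Irs1* in HFpEF+Veh was 0.318 ± 0.0429 TPM (SD, n = 6), against 0.346 ± 0.0822 TPM (n = 8) with them.

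*Irs2*, on the minus strand of chromosome 8 (10984681 to 11008458), was the most variable member. It was 1.201, 2.40 and 10.4 TPM in non_failing, 1.24, 4.34 and 9.65 TPM in HFpEF+Veh, 1.80, 4.42 and 15.3 TPM in HFpEF+TYA-018 and 1.21, 5.82 and 7.87 TPM in HFpEF+SGLT2i. Each group had libraries at the low end and at least 1 at 7.87 TPM or above, and the coefficient of variation over 38 libraries was 61.7%, against 7.94% for *Pik3ca* and 37.3% for *Irs1*. Between HFpEF+Veh and non_failing the log2 fold change was -0.0038 with a 95% interval of -0.90 to 0.89, so differences of almost that size could not have been seen. The highest HFpEF+Veh libraries were V2532 (9.65 TPM) and V2523 (8.10 TPM). Without both, the mean was 3.43 ± 1.64 TPM (SD, n = 6) and the highest library 5.64 TPM, in place of a mean of 4.79 ± 2.90 TPM (n = 8). The transcripts whose log2 CPM (counts per 1000000 counts of the library) followed *Irs2* most closely were *Fosl2* (r = 0.82), which encodes an AP-1 transcription factor, and *Mafk* (r = 0.77), which encodes a small Maf protein. *Irs2* was above *Irs1* in 38 of 38 libraries.

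The stretch upstream of the *Irs1* start is shown because this gene had the largest difference between non-failing and HFpEF hearts among the members. The sequence is from RefSeq (GRCm38.p6), chr1:82291440-82291689, minus strand, printed 5′ to 3′ and ending at the base before the RefSeq start. Capitals mark, on either strand, the GC box GGGCGG, the E-box CACGTG, and the FOXO letters written as CAAAACA in insulin response elements and as GTAAACA in the family's consensus. Here the E-box overlaps the CAAAACA match beside it.
Irs1: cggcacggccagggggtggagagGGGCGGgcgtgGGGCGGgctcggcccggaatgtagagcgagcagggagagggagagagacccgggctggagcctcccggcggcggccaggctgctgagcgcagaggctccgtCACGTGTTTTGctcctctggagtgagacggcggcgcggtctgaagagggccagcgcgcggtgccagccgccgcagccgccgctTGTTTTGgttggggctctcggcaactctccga
Over all 32851 RefSeq promoter windows of 250 bases, 32.7% held GGGCGG, 6.02% CACGTG, 5.56% CAAAACA and 3.17% GTAAACA. Of the 9 members with a window in this set, 8 held GGGCGG, 2 CACGTG (*Irs1* and *Irs2*), 2 CAAAACA (the same 2 genes) and 1 GTAAACA (*Akt1*). These counts are for 1 window per gene, although *Pik3r1* and *Akt1* had 2 starts and *Akt2* had 4. A match is a string of letters and not a binding site. No window for *Insr* was found in the promoter set used.

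*Pik3r1* and *Pik3ca* encode the regulatory p85α and the catalytic p110α subunit of the lipid kinase. *Pik3r1*, on the minus strand of chromosome 13 (101680563 to 101768217), was at 5.32, 8.77 and 12.9 TPM in non_failing, 6.24, 6.91 and 12.8 TPM in HFpEF+Veh, 4.73, 6.77 and 12.004 TPM in HFpEF+TYA-018 and 4.23, 7.08 and 14.0 TPM in HFpEF+SGLT2i. The 4 ranges overlapped almost throughout. The highest HFpEF+Veh library was V2532, and without it and V2523 the mean was 6.94 ± 0.865 TPM (SD, n = 6) in place of 7.78 ± 2.18 TPM (n = 8). In HFpEF+Veh against non_failing it was at a log2 fold change of -0.23, with a 95% interval of -0.60 to 0.14 and an edgeR adjusted p of 0.579. *Pik3ca*, on the plus strand of chromosome 3 (32397671 to 32468486), was the steadiest member. It was at 6.74, 7.73 and 8.41 TPM in non_failing, 6.73, 7.85 and 8.43 TPM in HFpEF+Veh, 6.02, 7.43 and 8.52 TPM in HFpEF+TYA-018 and 6.27, 7.28 and 8.25 TPM in HFpEF+SGLT2i. In HFpEF+Veh its mean was 7.56 ± 0.628 TPM (SD, n = 6) without V2523 and V2532 and 7.71 ± 0.615 TPM (n = 8) with them. Its 95% intervals were the narrowest, at -0.16 to 0.024 for HFpEF+Veh against non_failing, -0.048 to 0.13 for HFpEF+TYA-018 against HFpEF+Veh and -0.11 to 0.067 for HFpEF+SGLT2i against HFpEF+Veh. The ratio of *Pik3r1* to *Pik3ca* TPM was 1.14 ± 0.337 in non_failing hearts, 1.01 ± 0.263 with vehicle, 0.983 ± 0.293 with TYA-018 and 1.04 ± 0.334 with empagliflozin (SD), so the group means lay within 1 SD of each other.

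*Akt1* and *Akt2* encode AKT kinases, of which *Akt2* is the one most linked to insulin-stimulated glucose uptake. They were the most abundant members. *Akt1*, on the minus strand of chromosome 12 (112653821 to 112674884), was at 27.4, 33.3 and 35.0 TPM in non_failing and 24.9, 32.6 and 35.9 TPM in HFpEF+Veh. It was at 23.9, 27.5 and 37.4 TPM in HFpEF+TYA-018 and 22.9, 29.2 and 35.1 TPM in HFpEF+SGLT2i. In TPM, 4 of 11 libraries in each drug group lay below the lowest non_failing library, as did 1 of 8 in HFpEF+Veh. In CPM, the scale nearest to the test, these counts were 5 of 11 in HFpEF+TYA-018, 6 of 11 in HFpEF+SGLT2i and 4 of 8 in HFpEF+Veh. The HFpEF+Veh mean was 30.2 ± 3.38 TPM (SD, n = 6) without V2523 and V2532 and 31.3 ± 3.54 TPM (n = 8) with them. On log2 CPM, *Akt1* was below the non_failing mean in 7 of 8 HFpEF+Veh, 10 of 11 HFpEF+TYA-018 and 10 of 11 HFpEF+SGLT2i libraries. The log2 fold changes against non_failing were -0.20 ± 0.078 (SE, edgeR adjusted p = 0.167), -0.17 ± 0.072 (adjusted p = 0.137) and -0.21 ± 0.072 (adjusted p = 0.0820). Leaving out V2523 and V2532 took the HFpEF+Veh difference to -0.27 and past the threshold (adjusted p = 0.0323), in a fit that called 6.60% of all genes. Leaving out the HFpEF+TYA-018 library V2543 called *Akt1* in HFpEF+TYA-018 (adjusted p = 0.0304) and HFpEF+SGLT2i (adjusted p = 0.0458). Leaving out the HFpEF+SGLT2i library V2562 called it in HFpEF+SGLT2i (adjusted p = 0.0238). For HFpEF+TYA-018 against non_failing, the fit without V2543 called 1154 of all genes, against 1017 with every library. For HFpEF+SGLT2i against non_failing, the fit without V2562 called 988, against 888. Each was the most of any fit without 1 library.

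The *Akt1* difference between HFpEF+TYA-018 and HFpEF+Veh changed sign between fits. It was 0.029 in edgeR's fit of counts (95% interval -0.12 to 0.18) and -0.13 with limma on log2(TPM + 1), where the HFpEF+Veh difference from non_failing was -0.067. These fits differ in unit, scaling, model and gene filter together, and the cause was not tested.

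*Akt2*, on the plus strand of chromosome 7 (27591552 to 27640826), was at 25.6, 35.9 and 39.8 TPM in non_failing, 27.5, 32.8 and 41.1 TPM in HFpEF+Veh, 29.2, 33.9 and 40.4 TPM in HFpEF+TYA-018 and 26.2, 33.1 and 41.1 TPM in HFpEF+SGLT2i. The 4 ranges were nearly the same. The HFpEF+Veh mean was 32.6 ± 4.99 TPM (SD, n = 6) without V2523 and V2532 and 33.9 ± 5.17 TPM (n = 8) with them. Its log2 fold change was -0.074 for HFpEF+Veh against non_failing, with a 95% interval of -0.26 to 0.11, and 0.11 for HFpEF+TYA-018 against HFpEF+Veh, with an interval of -0.063 to 0.29. *Akt1* was above *Akt2* in 9 of 38 libraries. The ratio of *Akt1* to *Akt2* TPM was 0.985 ± 0.159 in non_failing hearts, 0.932 ± 0.10004 with vehicle, 0.826 ± 0.0943 with TYA-018 and 0.872 ± 0.118 with empagliflozin (SD).

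*Foxo1* and *Foxo3* encode transcription factors that AKT keeps out of the nucleus. *Foxo1*, on the plus strand of chromosome 3 (52268336 to 52353221), was at 1.57, 1.87 and 2.33 TPM in non_failing and 1.66, 2.37 and 2.59 TPM in HFpEF+Veh. It was at 1.35, 1.88 and 2.16 TPM in HFpEF+TYA-018 and 1.73, 2.13 and 2.82 TPM in HFpEF+SGLT2i. In TPM, 6 of 8 HFpEF+Veh libraries were above every non_failing library and above every HFpEF+TYA-018 library. In CPM, 4 of 8 were above every non_failing library and 0 of 8 above every HFpEF+TYA-018 library. The HFpEF+Veh mean was 2.19 ± 0.320 TPM (SD, n = 6) without V2523 and V2532 and 2.27 ± 0.314 TPM (n = 8) with them. The log2 fold changes of HFpEF+Veh against non_failing (0.18, 95% interval 0.0063 to 0.36, edgeR adjusted p = 0.294) and of HFpEF+TYA-018 against HFpEF+Veh (-0.14, interval -0.30 to 0.024, adjusted p = 0.373) did not pass the test. HFpEF+SGLT2i lay at -0.0023 from HFpEF+Veh, with an interval of -0.17 to 0.16.

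*Foxo3*, on the minus strand of chromosome 10 (42181841 to 42276755), was at 4.61, 6.62 and 8.19 TPM in non_failing, 5.004, 5.82 and 9.07 TPM in HFpEF+Veh, 4.45, 5.35 and 7.32 TPM in HFpEF+TYA-018 and 4.36, 6.17 and 9.09 TPM in HFpEF+SGLT2i. The highest library of HFpEF+Veh was again V2532, and without it and V2523 the mean was 5.66 ± 0.655 TPM (SD, n = 6) in place of 6.13 ± 1.32 TPM (n = 8). The log2 fold change against non_failing was -0.21 in HFpEF+Veh, with a 95% interval of -0.44 to 0.021, -0.16 in HFpEF+TYA-018 and -0.13 in HFpEF+SGLT2i, with edgeR adjusted p of 0.371, 0.399 and 0.537. *Foxo3* was above *Foxo1* in 38 of 38 libraries, and their TPM ratio (*Foxo1* to *Foxo3*) was 0.295 ± 0.0474 in non_failing hearts, 0.378 ± 0.0551 with vehicle, 0.330 ± 0.0721 with TYA-018 and 0.366 ± 0.0802 with empagliflozin (SD).

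*Tbc1d4* encodes the GTPase-activating protein, also called AS160, that holds back GLUT4 vesicles until AKT phosphorylates it. It lies on the minus strand of chromosome 14 (101442360 to 101609191). Its level was 16.5, 20.2 and 22.8 TPM in non_failing and 12.1, 17.6 and 24.1 TPM in HFpEF+Veh. In HFpEF+TYA-018 it was 15.4, 20.1 and 35.7 TPM, and in HFpEF+SGLT2i 15.7, 25.2 and 30.8 TPM. In TPM, 7 of 11 HFpEF+SGLT2i libraries and 4 of 11 HFpEF+TYA-018 libraries lay above every HFpEF+Veh library, while the lower ends of the ranges overlapped. In CPM these counts were 5 of 11 and 4 of 11. The log2 fold change against HFpEF+Veh was 0.53 ± 0.15 (SE) in HFpEF+SGLT2i, with a 95% interval of 0.23 to 0.83, higher than the HFpEF+Veh mean in 10 of 11 libraries. Its edgeR adjusted p was 0.0919. In HFpEF+TYA-018 it was 0.39 ± 0.15 (SE), with an interval of 0.093 to 0.69, higher in 9 of 11 libraries, with an adjusted p of 0.147.

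The call for *Tbc1d4* in HFpEF+SGLT2i lay close to the threshold. It passed with DESeq2 (adjusted p = 0.0456) and without the filter on low counts (adjusted p = 0.0439, where 2.09% of all genes were called). It also passed in 2 of the 38 fits that each left out 1 library. These were without the HFpEF+Veh library V2526 (log2 fold change 0.63, adjusted p = 0.0178) and without the HFpEF+SGLT2i library V2562 (0.58, adjusted p = 0.0452). Those 38 fits called 2 to 175 of all genes in this comparison. The call did not pass with library size alone, limma at either pseudocount, an offset for effective length, the 2 groups alone or without V2523 and V2532. The log2 fold change ranged from 0.47 to 0.63 over the 38 fits that each left out 1 library. Between the drugs the difference was -0.13, with an interval of -0.41 to 0.14. In HFpEF+Veh *Tbc1d4* was at 17.6 ± 4.98 TPM (SD, n = 6) without V2523 and V2532 and 17.6 ± 4.35 TPM (n = 8) with them. The mean effective length assigned to *Tbc1d4* was 38.6% of the length of its longest annotated transcript (6483 bases, of 10 annotated). The same share was 42.5% for *Pik3ca*, 52.0% for *Akt2*, 96.6% for *Akt1* and 76.6% for *Irs1*, which has 1 annotated transcript. The part of isoforms in this share was not tested. The transcripts nearest to *Tbc1d4* in log2 CPM over the 38 libraries were *Dixdc1* (r = 0.84), *Clasp2* (r = 0.77) and *Sfxn5* (r = 0.76), and those nearest to *Irs1* were *Fhod3* (r = 0.75), *Clasp1* (r = 0.72) and *Pitpnc1* (r = 0.71).

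The *Tbc1d4* upstream window is shown because this gene had the smallest p among the members (RefSeq, GRCm38.p6, chr14:101609192-101609441, minus strand), with GGGCGG on either strand in capitals and none of the other 3 motifs present.
Tbc1d4: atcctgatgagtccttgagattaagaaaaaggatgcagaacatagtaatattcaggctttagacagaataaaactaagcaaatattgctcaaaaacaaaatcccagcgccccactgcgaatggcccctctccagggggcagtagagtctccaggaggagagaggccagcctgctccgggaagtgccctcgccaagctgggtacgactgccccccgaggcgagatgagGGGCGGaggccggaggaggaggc
Its GC content was 54.8%, against a median of 52.4% over all windows.

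**Figure D2:**
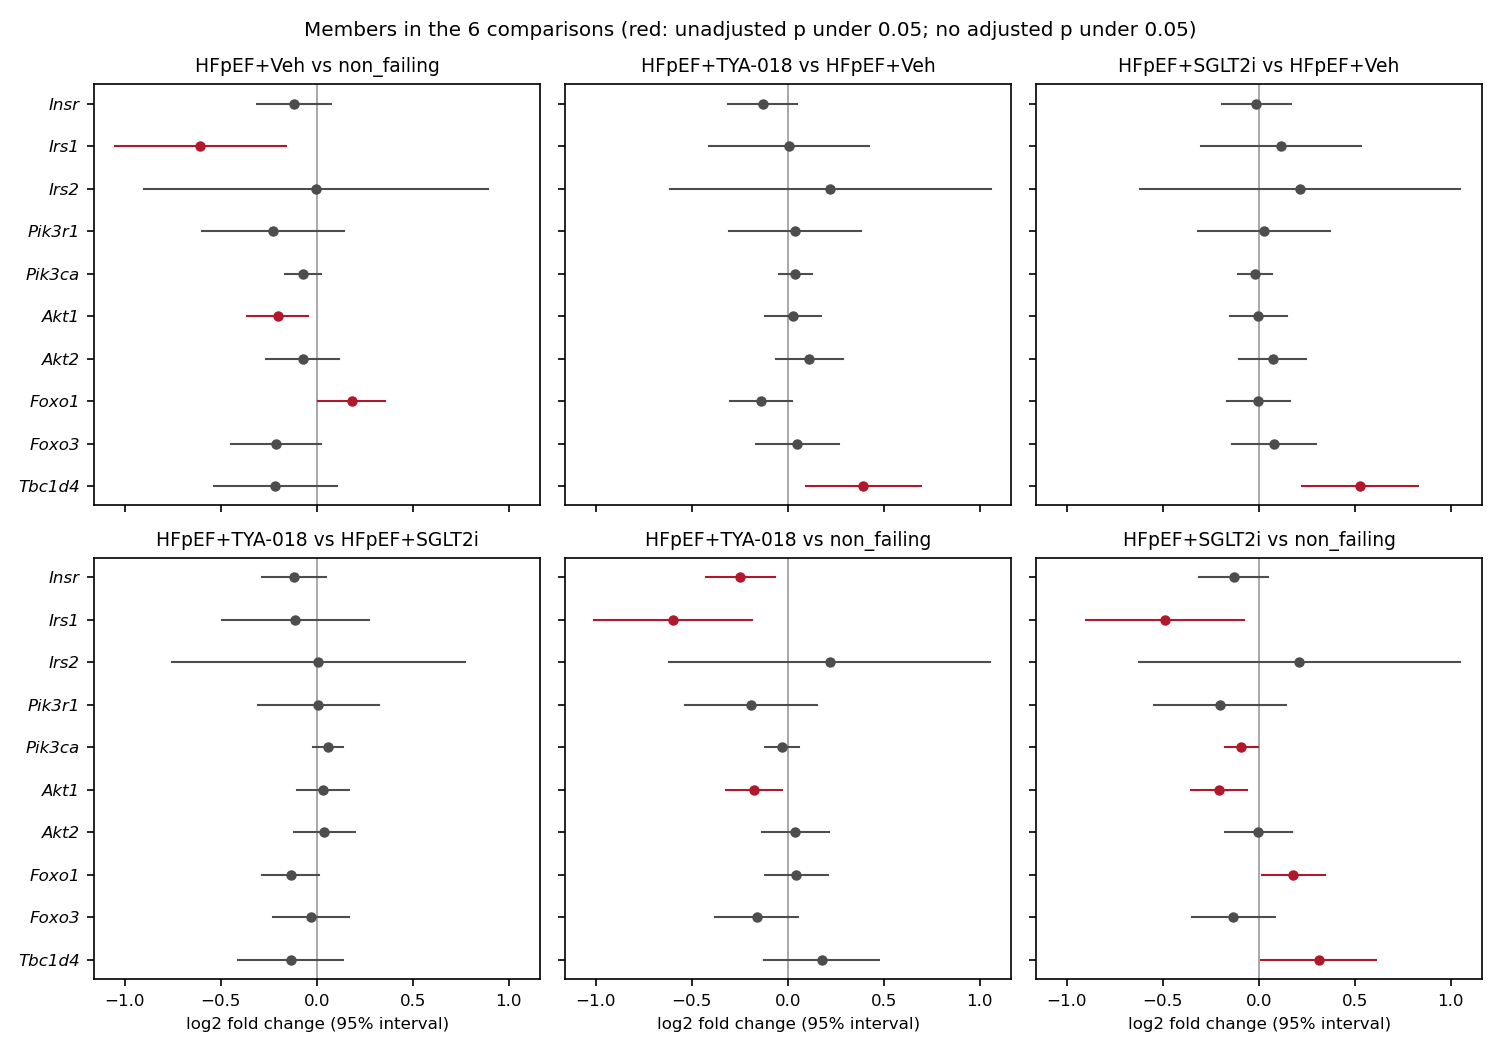
Log2 fold change (x axis) of each member (y axis) in the 6 comparisons, as points with 95% intervals from edgeR, in red where the unadjusted p is under 0.05. Tbc1d4 lies to the right of 0 in both drug groups against HFpEF+Veh (0.39 and 0.53), Irs1 to the left in the 3 HFpEF groups against non_failing (-0.61, -0.60 and -0.49), and Irs2 has the widest intervals.

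Set side by side in edgeR's fit, 9 of the 10 members were lower in HFpEF+Veh than in non_failing, *Foxo1* being the exception. The median log2 fold change of the 10 was -0.16, against 0.011 over all genes tested, of which 52.3% were higher. Several members varied together from mouse to mouse, so the 9 are not independent of each other. None of the 10 was called. With scaling by library size alone, the median of all genes moved to 0.080, and *Irs2* (0.061) and *Pik3ca* (0.00055) lay above 0 but below that median. With limma at either pseudocount, *Irs2* and *Akt2* lay above 0. In edgeR's fit, 8 of 10 lay above 0 for HFpEF+TYA-018 against HFpEF+Veh (median 0.038, 48.2% of all genes above 0). For HFpEF+SGLT2i against HFpEF+Veh it was 6 of 10 (median 0.050, 51.6% of all genes). Between the drugs 5 of 10 were higher in HFpEF+TYA-018 (48.4% of all genes), and against non_failing 4 of 10 were higher in HFpEF+TYA-018 (51.0%) and 3 of 10 in HFpEF+SGLT2i (51.3%). The count for HFpEF+TYA-018 against HFpEF+Veh depended on the scale. With library size alone, the median of all genes was -0.14, and *Irs1*, *Pik3r1*, *Pik3ca*, *Akt1*, *Akt2* and *Foxo3* lay below 0 but above that median. With limma at either pseudocount, *Irs1*, *Pik3r1*, *Pik3ca*, *Akt1* and *Foxo3* changed sign to below 0. In TPM, the TYA-018 means of these genes, *Insr* and *Foxo1* were below the vehicle means. Those of *Irs2*, *Akt2* and *Tbc1d4* were above them.

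The order of the members by mean TPM was much the same in the 4 groups. *Akt2* and *Akt1* were followed by *Tbc1d4*, then by *Insr*, *Pik3r1* and *Pik3ca* in varying order, then by *Foxo3*, *Irs2*, *Foxo1* and *Irs1*. *Insr*, *Pik3r1* and *Pik3ca* were not separated by their spread. In non_failing *Insr* exceeded *Pik3r1* in 5 of 8 libraries and *Pik3r1* exceeded *Pik3ca* in 5 of 8. *Pik3r1* exceeded *Pik3ca* in 17 of all 38.

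*Pik3r1* and *Foxo3* varied together from mouse to mouse. On log2 CPM over 38 libraries Pearson's r was 0.90 and Spearman's rho 0.87, with a two-sided permutation p of 1e-05 for each, the smallest that 100000 permutations can give, and adjusted p of 0.000225 and 0.00045 over the 45 pairs of members. Without the 2 libraries farthest from the median of *Pik3r1*, r was 0.87, and without V2523 and V2532 it was 0.89. Within groups r was 0.93 in non_failing, 0.95 in HFpEF+Veh, 0.81 in HFpEF+TYA-018 and 0.93 in HFpEF+SGLT2i. Of all tested genes, *Pik3r1* was the one whose log2 CPM followed *Foxo3* most closely over the 38 libraries, and *Foxo3* the one that followed *Pik3r1* most closely. Next came *Tfdp2* for *Foxo3* (r = 0.88) and *Myzap* for *Pik3r1* (r = 0.87). Within HFpEF+TYA-018, *Cdc37l1* (r = 0.98) and *Tfdp2* (r = 0.94) followed *Foxo3* more closely than *Pik3r1* did. *Akt1* followed *Pik3r1* and *Foxo3*, at r = 0.66 with each (rho = 0.61 with *Pik3r1* and 0.58 with *Foxo3*, permutation p of 3e-05 and 1e-05 for r). *Tbc1d4* ran the other way against *Pik3r1*, at r = -0.50 and rho = -0.52 (permutation p of 0.00187 and 0.00135, adjusted 0.0140 and 0.0122 over the 45 pairs). In all, 14 of 45 pairs (31.1%) had an adjusted p under 0.05, each with r of at least 0.39 in size, and 11 of them were positive. Of all pairs of the 13765 tested genes, 19.98% reached that size, 50.6% of those being positive, and 0.0256% reached the r of *Pik3r1* with *Foxo3*.

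These pairs also moved with properties of the libraries. The median, over genes, of the ratio of effective transcript length in a library to its geometric mean over libraries had r = 0.71 with *Pik3r1*, 0.70 with *Foxo3*, 0.64 with *Akt1* and -0.39 with *Tbc1d4* (rho = 0.73, 0.73, 0.62 and -0.33, permutation adjusted p for rho of 0.00015, 0.00015, 0.0006 and 0.0831 over 30 relations). For *Tbc1d4* the adjusted p for r was 0.0428. Within groups its r with this ratio was -0.29 in non_failing, -0.085 in HFpEF+Veh, -0.88 in HFpEF+TYA-018 and -0.79 in HFpEF+SGLT2i, and with the group means removed it was -0.61. The part of transcript length in the *Tbc1d4* differences between groups was not tested. The share of mitochondrial counts had r = -0.50 with *Pik3r1* and -0.44 with *Foxo3*. After depth, mitochondrial share and length ratio were removed by regression, r between *Pik3r1* and *Foxo3* was 0.79, between *Pik3r1* and *Akt1* 0.34 and between *Pik3r1* and *Tbc1d4* -0.30.

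**Figure D3:**
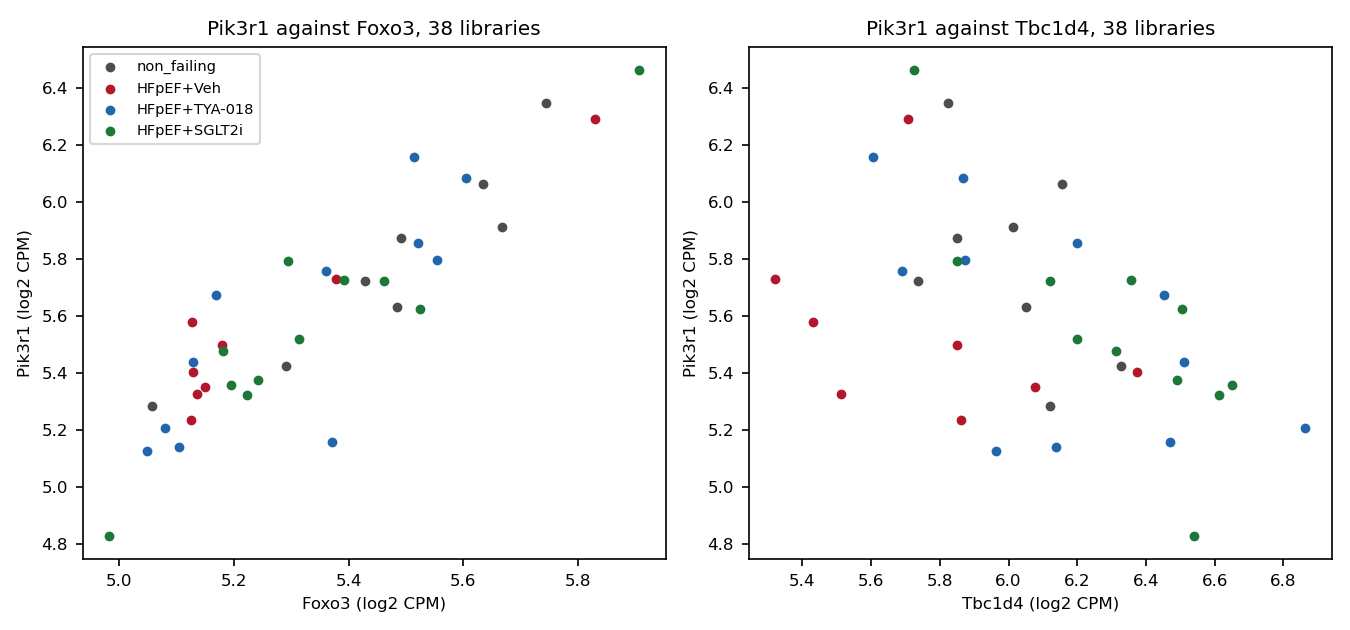
Log2 CPM of Pik3r1 (y axis) against Foxo3 (left, x axis) and Tbc1d4 (right, x axis), with 1 point per library coloured by group. The points on the left follow 1 rising band in all 4 groups (r = 0.90), and those on the right fall with wide scatter (r = -0.50).

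The upstream windows of *Pik3r1* and *Foxo3* are shown because these members varied together (RefSeq, GRCm38.p6, minus strand, chr13:101768218-101768467 and chr10:42276756-42276945). *Foxo3* had 1 RefSeq start and *Pik3r1* had 2, of which 1 is shown. The *Foxo3* window stops where GENCODE places its first exon. Capitals mark GGGCGG on either strand, found 4 times in each printed stretch, and none of the other 3 motifs occurred.
Pik3r1: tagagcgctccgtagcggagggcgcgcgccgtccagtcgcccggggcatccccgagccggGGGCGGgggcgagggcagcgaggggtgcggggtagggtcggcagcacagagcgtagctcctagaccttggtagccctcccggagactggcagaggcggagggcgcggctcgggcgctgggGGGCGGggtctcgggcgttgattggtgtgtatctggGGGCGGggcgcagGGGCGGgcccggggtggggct
Foxo3: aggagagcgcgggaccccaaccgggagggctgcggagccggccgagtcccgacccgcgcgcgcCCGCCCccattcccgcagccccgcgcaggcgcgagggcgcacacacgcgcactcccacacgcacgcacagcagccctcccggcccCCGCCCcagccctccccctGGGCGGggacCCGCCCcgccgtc
Both full windows had a GC content of 76.4%, the highest among the members.

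The wider pathway was followed in 8 lists of 101 genes, of which 97 were tested. *Insrr*, *Irs4*, *Sesn3* and *Stxbp3* were not tested here. In HFpEF+Veh against non_failing 1 gene was called higher and 4 lower (background 1.77% and 1.38% of all genes). The lower genes were *Slc2a12*, *Slc2a4*, *Sort1* and *Igf1r*, and the higher one was *Pdk4*. In HFpEF+TYA-018 against HFpEF+Veh 2 were called higher, *Slc2a4* and *Ppp2r5b*, and 3 lower, *Ptprf*, *Pik3c2a* and *Igfbp3* (background 0.835% and 1.10%). In HFpEF+SGLT2i against HFpEF+Veh only *Pdk4* was called, higher (background 0.131%). Against non_failing, 6 genes were higher and 3 lower in HFpEF+TYA-018 (background 4.00% and 3.39%), and 6 higher and 2 lower in HFpEF+SGLT2i (background 3.46% and 2.99%).

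Glucose transporters and their traffic held 4 of these genes. *Slc2a4*, which encodes GLUT4, the insulin-responsive transporter, was at 73.6, 93.1 and 113 TPM in non_failing, 62.0, 74.1 and 89.7 TPM in HFpEF+Veh, 72.7, 90.9 and 102 TPM in HFpEF+TYA-018 and 51.6, 79.1 and 98.9 TPM in HFpEF+SGLT2i. It was lower with vehicle than in non_failing hearts, with -0.38 ± 0.11 as log2 fold change and SE (edgeR, adjusted p = 0.0486), and higher with TYA-018 than with vehicle, at 0.38 ± 0.10 (adjusted p = 0.0462). In HFpEF+SGLT2i against HFpEF+Veh it was 0.13, and the drugs differed by 0.25 (adjusted p = 0.243). Summed cardiomyocyte markers were also lower with vehicle than in non_failing hearts (25082 against 29651 TPM). The means of *Tnnt2*, *Myl2*, *Myl3*, *Tnni3* and *Ryr2* were lower, and those of *Myh6* (581 against 551 TPM) and *Actc1* (3031 against 2940 TPM) higher. The part of these markers in the *Slc2a4* difference was not tested. Both calls were at the edge, and they held in 14 and 15 of 38 fits that each left out 1 library. *Slc2a12*, which encodes the glucose transporter GLUT12, was at 0.460, 0.920 and 1.47 TPM in non_failing and 0.453, 0.512 and 0.789 TPM in HFpEF+Veh. The log2 fold change was -0.87 ± 0.19 (SE, adjusted p = 0.00525), and the call held in 38 of 38 such fits. In the drug groups it was 0.63 (HFpEF+TYA-018, adjusted p = 0.0515) and 0.65 (HFpEF+SGLT2i, adjusted p = 0.0717) above HFpEF+Veh. *Sort1*, encoding the sorting receptor sortilin of GLUT4 vesicles, was lower than in non_failing in all 3 HFpEF groups (-0.43, -0.58 and -0.38, adjusted p of 0.0371, 0.000598 and 0.0308). Those calls held in 30, 38 and 32 of 38 fits that each left out 1 library, and with 3, 8 and 3 of 8 alternatives. *Aspscr1*, encoding the GLUT4 tether TUG, was higher than in non_failing in the drug groups (0.20 and 0.18, adjusted p of 0.0145 and 0.0295). In HFpEF+Veh it was 0.093 above non_failing (adjusted p = 0.426), and in TPM the HFpEF+Veh mean, 17.3 ± 2.56 (SD), was above those of HFpEF+TYA-018 (16.5 ± 2.44), HFpEF+SGLT2i (17.0 ± 2.99) and non_failing (14.7 ± 2.07).

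Among the receptors and ligands, *Igf1r*, the receptor most like *Insr*, was at 1.49, 1.80 and 2.23 TPM in non_failing, 1.41, 1.45 and 1.93 TPM in HFpEF+Veh, 1.06, 1.31 and 1.48 TPM in HFpEF+TYA-018 and 1.304, 1.67 and 1.93 TPM in HFpEF+SGLT2i. All 11 HFpEF+TYA-018 libraries lay below the lowest non_failing library, by a narrow margin (1.483 against 1.493 TPM). Of all genes tested, 0.872% had TPM ranges that did not overlap in this comparison. The log2 fold change of HFpEF+TYA-018 against non_failing was -0.46 ± 0.070 (SE, edgeR adjusted p = 3.88e-05), and that of HFpEF+Veh was -0.26 ± 0.076 (adjusted p = 0.0430). The first call held in 38 of 38 fits that each left out 1 library and with 8 of 8 alternatives. The HFpEF+Veh call held in 27 of 38 and with 3 of 8. *Igfbp3*, an IGF binding protein, was lower with TYA-018 than with vehicle (-0.64, adjusted p = 0.0199), and without the HFpEF+Veh library V2530 this was -0.44 and not called. Fibroblast markers summed to 603 TPM in V2530, against 350 ± 115 TPM over the HFpEF+Veh libraries and 263 ± 41.7 TPM in HFpEF+TYA-018 (SD), and their part in this difference was not tested. Against non_failing it was -1.01 (adjusted p = 3.16e-05) in HFpEF+TYA-018, -0.80 (adjusted p = 0.000798) in HFpEF+SGLT2i and -0.37 (adjusted p = 0.253) in HFpEF+Veh.

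Of the kinases, phosphatases and brakes, *Mtor*, the kinase of the complexes that activate AKT and drive protein synthesis, was higher than in non_failing in HFpEF+TYA-018 (0.25 ± 0.059, adjusted p = 0.00597) and HFpEF+SGLT2i (0.35 ± 0.060, adjusted p = 0.00018). *Pik3r3*, a further regulatory subunit of the lipid kinase, was also higher in both (0.30 and 0.31, adjusted p of 0.0266 and 0.0219), and *Inppl1*, which encodes the lipid phosphatase SHIP2, in HFpEF+SGLT2i (0.30, adjusted p = 0.0317). In HFpEF+Veh the differences from non_failing were 0.15 for *Mtor*, 0.15 for *Pik3r3* and 0.080 for *Inppl1* (adjusted p of 0.211, 0.424 and 0.731). Neither drug group was called against HFpEF+Veh for these 3 genes, and in TPM the HFpEF+Veh mean of *Mtor* (4.61 ± 0.456, SD) lay above that of HFpEF+TYA-018 (4.40 ± 0.485). *Ptprf*, a receptor tyrosine phosphatase, and *Pik3c2a*, a class II lipid kinase, fell with TYA-018 against vehicle (-0.94 and -0.83, adjusted p of 0.0410 and 0.0406). Without V2523 the *Ptprf* difference was -0.60, and without V2523 and V2532 neither was called. Endothelial markers summed to 413 ± 52.7 TPM in HFpEF+Veh and 338 ± 43.4 TPM in HFpEF+TYA-018, and fibroblast markers were also higher with vehicle. The part of either in the *Ptprf* and *Pik3c2a* differences was not tested. *Ppp2r5b*, a regulatory subunit of the phosphatase PP2A that acts on AKT, was 0.16 higher with TYA-018 than with vehicle (adjusted p = 0.0367), but read -0.023 with limma on log2(TPM + 1).

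Among the other FOXO factors and genes known as FOXO targets, *Pdk4*, whose product turns off pyruvate dehydrogenase and so spares glucose, was higher than in non_failing in each HFpEF group. It was at 52.7, 73.1 and 102 TPM in non_failing, 77.3, 115 and 220 TPM in HFpEF+Veh, 80.1, 128 and 209 TPM in HFpEF+TYA-018 and 138, 213 and 385 TPM in HFpEF+SGLT2i. Every HFpEF+SGLT2i library lay above every non_failing library, and 0.719% of all genes tested had TPM ranges that did not overlap in this comparison. The log2 fold change was 0.68 ± 0.20 (SE) in HFpEF+Veh against non_failing (edgeR adjusted p = 0.0457), 0.86 ± 0.18 in HFpEF+SGLT2i against HFpEF+Veh (adjusted p = 0.00865) and 0.24 ± 0.18 in HFpEF+TYA-018 against HFpEF+Veh (adjusted p = 0.507). The call against HFpEF+Veh held in 38 of 38 fits that each left out 1 library but not with limma on log2(TPM + 1) (0.80, adjusted p = 0.149), and the call of HFpEF+Veh against non_failing in 17 of 38, with 0.54 without V2523. The difference between the drugs was -0.62 (adjusted p = 0.103). Glucocorticoid-responsive transcripts, a list that includes *Pdk4*, summed to 234 ± 57.3 TPM in non_failing hearts, 326 ± 44.5 with vehicle, 307 ± 53.3 with TYA-018 and 406 ± 90.7 with empagliflozin (SD), and their part in the *Pdk4* difference was not tested. Without *Pdk4*, the other 6 genes summed to 159 ± 47.1, 200.1 ± 44.7, 165 ± 24.9 and 190.3 ± 76.8 TPM in the same order. *Foxo4* was higher than in non_failing in HFpEF+TYA-018 (0.21, adjusted p = 0.0468) and HFpEF+SGLT2i (0.29, adjusted p = 0.00509), and *Bnip3*, a mitophagy receptor, in HFpEF+TYA-018 (0.46, adjusted p = 0.0176). The *Foxo4* call in HFpEF+TYA-018 held in 15 of 38 fits that each left out 1 library and with 3 of 8 alternatives. That in HFpEF+SGLT2i held in 38 of 38 and with 8 of 8. In HFpEF+Veh the differences from non_failing were 0.18 for *Foxo4* (adjusted p = 0.183) and 0.15 for *Bnip3* (adjusted p = 0.622), and neither drug group was called against HFpEF+Veh for either gene. *Fbxo32* and *Trim63*, the muscle ubiquitin ligases of the same list, were called in no comparison.

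**Figure D4:**
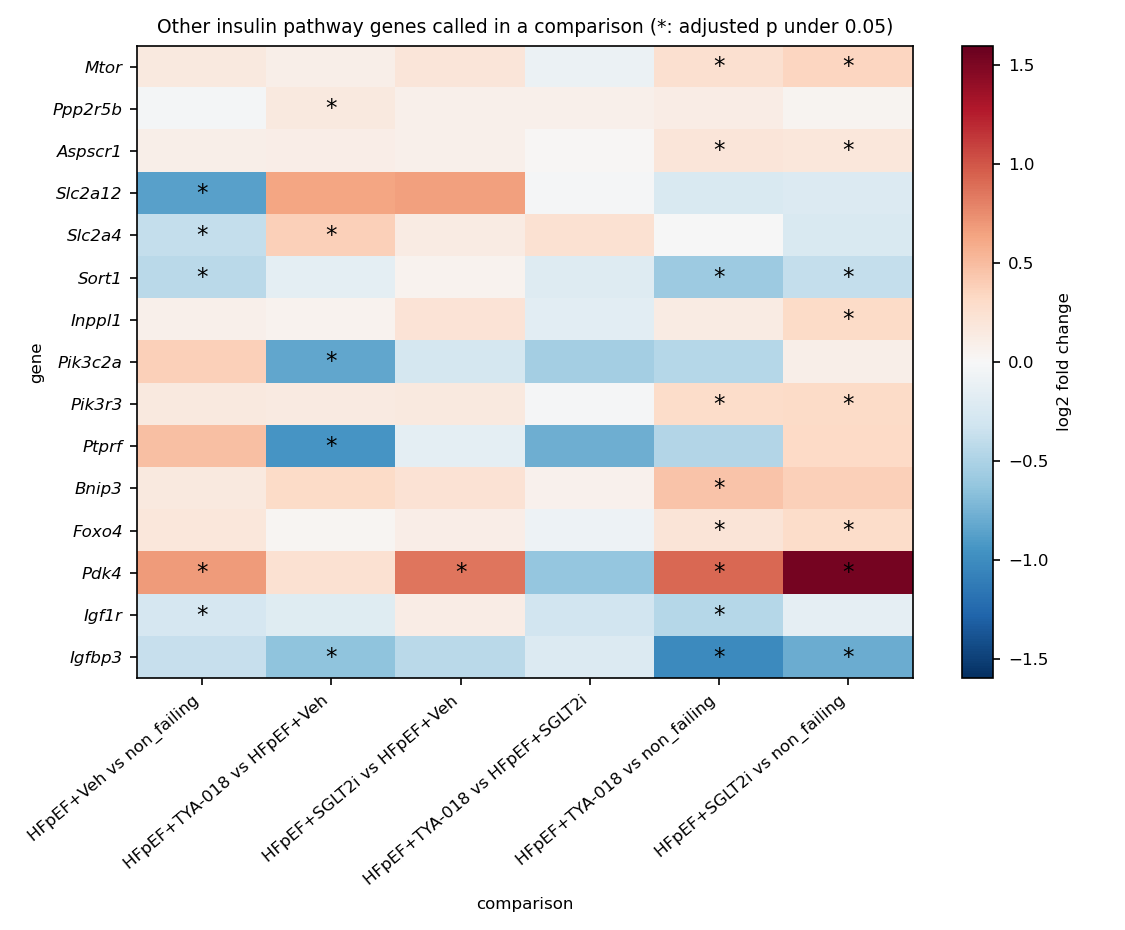
Log2 fold change (colour, from blue at -1.6 to red at 1.6) of the 15 pathway genes called in any comparison (rows) in the 6 comparisons (columns), with an asterisk where the adjusted p is under 0.05. The Pdk4 row is red throughout except between the drugs, Igfbp3 and Sort1 are blue in the 3 columns against non_failing, and no square is marked between the drugs.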

How the data were processed

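Left ventricle RNA was sequenced from poly(A)-selected stranded libraries. Per the study's methods the authors trimmed reads, quantified transcripts with Salmon against mouse GENCODE transcripts (GRCm38) and summed them per gene. The submitters' processing notes name Salmon 1.6.0 and the human build hg38, whereas the gene symbols are those of mouse. The deposited estimated counts, TPM values and effective lengths (in bases) were used as the authors made them, with TPM relative to all transcripts quantified in a library.

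Estimated counts were rounded, filtered with filterByExpr (13765 genes kept of 29564) and tested with edgeR 4.0.16 (TMM, quasi-likelihood, 4 groups in 1 fit, 6 contrasts and an overall test, R 4.3.3), with Benjamini-Hochberg adjustment over all genes tested and a call at an adjusted p under 0.05. Intervals are 95%. Log2 CPM used a prior count of 2. Library totals of 21.5 to 59.3 (in units of 1000000 estimated counts) set the precision of each value. The test was tested on simulated data. All 10 members passed the filter. Nothing in the labels names a litter or batch, and each mouse gave 1 library, so p-values measure the spread between mice. Correlations used 100000 two-sided permutations. Alternatives were DESeq2 1.42.0, library size alone, no filter, limma 3.58.1 on log2(TPM + 1) and log2(TPM + 0.1) for genes detected in 90% of libraries, an offset for effective length, the 2 groups alone, without V2523 and V2532, and without each library in turn. Members were named by the 10 symbols, and pathway genes were named where called in a comparison. The members, lists and tests were chosen with earlier results of these data known. Annotation is GENCODE (GRCm38) and upstream sequence RefSeq (GRCm38.p6).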

Additional observations from a re-analysis of the deposited data

Results flagged for a closer look

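In the HFpEF+Veh group of 8, the library V2532 stood apart from the others at the high end for 3 members. *Irs1* was at 2.18 log2 CPM there (0.528 TPM), and the gap to the nearest library was 0.543 of the group's range. *Pik3r1* was at 6.29 log2 CPM (12.8 TPM, nearest 8.59 TPM), with a gap of 0.533 of the range. *Foxo3* was at 5.83 log2 CPM (9.07 TPM, nearest 6.81 TPM), with a gap of 0.641 of the range. V2532 held 57.7 in units of 1000000 counts, against 25.6 to 34.0 in the other HFpEF+Veh libraries, and its median transcript length ratio was 1.105, against 0.948 to 1.040. Within HFpEF+Veh, r of *Pik3r1* and *Foxo3* was 0.83 and 0.88 with depth and 0.78 and 0.82 with that ratio. V2532 also held the skeletal muscle transcripts *Tnnt3*, *Mylpf* and *Myh4* at 16.9, 11.2 and 7.84 TPM, against at most 0.716, 0.930 and 0 TPM in those others. Its *Acta1* (213 TPM) and *Ckm* (765 TPM) did not exceed the highest of those others (222 and 1105 TPM). The skeletal muscle markers together summed to 1014 TPM there, the lowest of the group. The part of depth, length or these transcripts in the values was not tested. Each gap was above the 95% limit of Dixon's test for 8 samples. In all, 20 combinations of member and group of at most 10 libraries were examined, of which chance flags about 1 in 20. *Pik3r1* and *Foxo3* varied together in all 4 groups, so these are not independent of each other.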

How the results depend on the processing

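No paired analysis was possible because every mouse number occurs in 1 group only. Under the alternatives the number of members called rose from 0 to 1 or 2 in places. In HFpEF+Veh against non_failing it was 1 without V2523 and V2532 (*Akt1*), and 0 in each fit that left out 1 library. In HFpEF+SGLT2i against HFpEF+Veh it was 1 with DESeq2, 1 without the filter on low counts (*Tbc1d4* both times), and 0 to 1 over the fits that left out 1 library. In HFpEF+TYA-018 against non_failing it was 1 with DESeq2 (*Irs1*), 2 with library size alone, 1 with limma on log2(TPM + 1) (*Insr*), 2 with limma on log2(TPM + 0.1) (*Insr* and *Irs1* both times), and 0 to 1 over the fits that left out 1 library, where *Irs1* was called without the HFpEF+TYA-018 library V2547 (adjusted p = 0.0220) or V2552 (adjusted p = 0.0365) and *Akt1* without V2543. In HFpEF+SGLT2i against non_failing it was 0 to 1 (*Akt1*). In the test for any difference among the 4 groups it was 1 with DESeq2, 1 with an offset for effective length, and 0 to 1 without 1 library, *Tbc1d4* each time, without HFpEF+Veh V2526, HFpEF+TYA-018 V2543 or V2546, or HFpEF+SGLT2i V2562 or V2564. HFpEF+TYA-018 against HFpEF+Veh or HFpEF+SGLT2i stayed at 0 in every fit run. The cause of these changes was not tested.

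Calls over all genes depended on the setting. HFpEF+TYA-018 against HFpEF+Veh had 266 (115 higher), 402 with DESeq2 (217 higher), 1096 with library size alone (25 higher), 618 without the filter (126 higher), 38 and 41 with limma, 58 with the 2 groups fitted alone, 90 without V2523 and V2532, and 167 to 393 without 1 library (167 without V2530 and 177 without V2547, both over 1.5 times below 266). HFpEF+SGLT2i against HFpEF+Veh had 117, against 457 without the filter, 0 with limma at either pseudocount, 3 with the 2 groups alone, 20 without V2523 and V2532, and 2 to 175 without 1 library, the 2 being without V2523. HFpEF+Veh against non_failing had 433 (243 higher), 916 without V2523 and V2532 (413 higher), 477 with library size alone (379 higher), and 289 to 620 without 1 library. HFpEF+TYA-018 against non_failing had 1017 (551 higher) and 904 with library size alone (258 higher), with 612 and 623 by limma and 736 to 1154 without 1 library. HFpEF+SGLT2i against non_failing had 888, with 521 and 530 by limma and 701 to 988 without 1 library. Between the drugs DESeq2 made 185 calls, the length offset 5, and the fits without 1 library 0 to 17 (17 without V2570, 9 without V2565, and at most 1 in the others). In the overall test limma made 753 and 742 calls in place of 1308, and the fits without 1 library made 960 to 1481. With library size alone the median log2 fold change of all genes was -0.14 in HFpEF+TYA-018 against HFpEF+Veh.

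With an offset for effective length the log2 fold changes that changed sign were *Insr* 0.027, *Pik3ca* 0.013, *Foxo1* 0.037 (HFpEF+SGLT2i against HFpEF+Veh), *Pik3r1* -0.0079 (HFpEF+TYA-018 against HFpEF+SGLT2i), *Akt1* -0.014 (HFpEF+TYA-018 against HFpEF+Veh), *Foxo1* -0.027 (HFpEF+TYA-018 against non_failing). Without V2523 and V2532 the log2 fold changes that changed sign were *Insr* 0.0027, *Akt1* 0.068, *Foxo1* 0.0038 (HFpEF+SGLT2i against HFpEF+Veh). With library size alone the log2 fold changes that changed sign were *Irs1* -0.12, *Pik3r1* -0.087, *Pik3ca* -0.089, *Akt1* -0.098, *Akt2* -0.020, *Foxo3* -0.078 (HFpEF+TYA-018 against HFpEF+Veh), *Irs2* 0.061, *Pik3ca* 0.00055 (HFpEF+Veh against non_failing), *Irs2* -0.039, *Pik3r1* -0.040, *Akt1* -0.020, *Akt2* -0.0096 (HFpEF+TYA-018 against HFpEF+SGLT2i), *Pik3r1* -0.046, *Akt2* -0.0099 (HFpEF+SGLT2i against HFpEF+Veh), *Akt2* -0.021, *Foxo1* -0.017 (HFpEF+TYA-018 against non_failing). Without the filter on low counts the log2 fold changes that changed sign were *Irs1* -0.0041 (HFpEF+TYA-018 against HFpEF+Veh), *Irs2* 0.0039 (HFpEF+Veh against non_failing). With limma on log2(TPM + 1) the log2 fold changes that changed sign were *Irs1* -0.047, *Pik3r1* -0.085, *Pik3ca* -0.035, *Akt1* -0.13, *Foxo3* -0.078, *Ppp2r5b* -0.023 (HFpEF+TYA-018 against HFpEF+Veh), *Irs2* 0.21, *Akt2* 0.0025 (HFpEF+Veh against non_failing), *Irs2* -0.12, *Pik3r1* -0.063, *Akt1* -0.040 (HFpEF+TYA-018 against HFpEF+SGLT2i), *Pik3r1* -0.023 (HFpEF+SGLT2i against HFpEF+Veh), *Akt2* 0.0069 (HFpEF+SGLT2i against non_failing), *Foxo1* -0.050 (HFpEF+TYA-018 against non_failing). With limma on log2(TPM + 0.1) the log2 fold changes that changed sign were *Irs1* -0.15, *Pik3r1* -0.094, *Pik3ca* -0.037, *Akt1* -0.14, *Foxo3* -0.085, *Ppp2r5b* -0.025 (HFpEF+TYA-018 against HFpEF+Veh), *Irs2* 0.26, *Akt2* 0.0027 (HFpEF+Veh against non_failing), *Irs2* -0.14, *Pik3r1* -0.068, *Akt1* -0.041 (HFpEF+TYA-018 against HFpEF+SGLT2i), *Pik3r1* -0.025 (HFpEF+SGLT2i against HFpEF+Veh), *Akt2* 0.0072 (HFpEF+SGLT2i against non_failing), *Foxo1* -0.065 (HFpEF+TYA-018 against non_failing). Over the 38 fits that each left out 1 library, the log2 fold changes that crossed 0 ranged as follows: *Insr* -0.055 to 0.033, *Pik3r1* -0.093 to 0.16, *Akt1* -0.040 to 0.046, *Foxo1* -0.047 to 0.032 (HFpEF+SGLT2i against HFpEF+Veh), *Irs1* -0.11 to 0.11, *Irs2* -0.076 to 0.46, *Pik3r1* -0.029 to 0.17, *Akt1* -0.018 to 0.077 (HFpEF+TYA-018 against HFpEF+Veh), *Irs2* -0.24 to 0.27 (HFpEF+Veh against non_failing), *Irs2* -0.29 to 0.11, *Pik3r1* -0.057 to 0.13, *Akt1* -0.016 to 0.069, *Foxo3* -0.062 to 0.040 (HFpEF+TYA-018 against HFpEF+SGLT2i), *Irs2* -0.083 to 0.49, *Akt2* -0.0066 to 0.069, *Foxo1* -0.018 to 0.073 (HFpEF+TYA-018 against non_failing), *Akt2* -0.047 to 0.029 (HFpEF+SGLT2i against non_failing). *Irs1* had the fewest estimated counts of the members, 45.3 in its lowest library. In simulated counts for HFpEF+Veh against non_failing 44.4% of changes of 0.5 on the log2 scale and 77.5% of changes of 1 were recovered, from changed genes of all abundances among 13673.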
